A study of Mus musculus with 27 samples.

Results

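The genes described here are the 200 protein-coding Zfp-named zinc finger genes with the most reads in total RNA of RAW264.7 cells, a mouse macrophage line. They were taken from the genes of the deposited table whose symbol is Zfp and a number, with or without 1 letter. Zfp36, which encodes an AU-rich element binding protein with fingers of another kind, was left out. Of 55483 genes in the table, 401 had such a symbol and 392 of these were listed as protein-coding. The 200 with the largest sum of raw counts over the 12 total RNA libraries were kept and the other 192 were not. The sums ran from 754 for Zfp811 to 114025 for Zfp106, with a median of 2459.5. Zfp950 (791), Zfp607a (760) and Zfp811 (754) were the last inside the limit, and Zfp605 (751), Zfp943 (728) and Zfp874b (721) the first outside. The members took 0.381% of all RNA counts and the 192 genes below them 0.0154%. The RNA level therefore chose the members and is given as a description.

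The cells were treated for 6 h with DMSO (the vehicle), with LPS at 1 µg/ml plus DMSO, or with LPS and 10 µM TM7nox. LPS is a bacterial lipopolysaccharide that activates macrophages, and TM7nox is one of the tanshinone mimics, compounds designed to interfere with RNA binding by HuR. HuR, the product of Elavl1, attaches to mRNA at stretches rich in U or in A and U. Each treatment had 4 libraries of total RNA, 4 of RNA recovered with an anti-HuR antibody (ribonucleoprotein immunoprecipitation, RIP) and 1 of RNA recovered with control IgG, so 27 in all. All groups are of the same line, and the controls carry the vehicle.

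C2H2 zinc finger proteins bind DNA, and some RNA, through tandem fingers in which a pair of cysteines and a pair of histidines hold a zinc ion. Many carry a KRAB box, which recruits the corepressor Trim28 (KAP1) and, through it, the histone methyltransferase Setdb1 and heterochromatin proteins. KRAB zinc finger genes lie in clusters, are known for silencing transposable elements, and are usually expressed at low levels. The symbol Zfp was given to genes for many kinds of zinc finger protein, among them ribosome factors, spindle proteins and DNA-binding regulators.

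The finger is the feature most members share, and it is shown as coding bases for Zfp811, which has a KRAB box, and Zfp281, which has none, both higher under LPS. Each is the first C2H2 match in the reading frame of the GENCODE M39 transcript on GRCm39, on the gene's strand, with the codons of the 2 cysteines and 2 histidines in capitals. The stretch is residues 195 to 216 of Zfp811 (chromosome 17) and residues 260 to 280 of Zfp281 (chromosome 1).
Zfp811: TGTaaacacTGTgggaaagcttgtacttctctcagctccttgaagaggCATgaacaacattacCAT
Zfp281: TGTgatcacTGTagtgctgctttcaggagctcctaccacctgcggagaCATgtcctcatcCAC
The match was searched in the reading frame, so the capitals are whole codons by construction. The stretch is 22 residues in Zfp811 and 21 in Zfp281, with more bases between the histidine codons in Zfp811. The bases between the capitals differ.

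All 200 members matched GENCODE M39. A KRAB A box was found in 95 and not in 105, in 1 transcript per gene, by an alignment score over 40 residues. Other transcripts were not searched, so a gene counted as without the box, such as Zfp180 or Zfp420, may carry it in another transcript. A SCAN domain, which pairs zinc finger proteins with one another, was found in 8, of which 5 also had a KRAB box. The members held a median of 10 C2H2 fingers (0 to 36), with 12 in members with a KRAB box and 7 in those without. Only 4 members had no finger of the searched pattern. Chromosome 7 held 50 members, 26 of them with a KRAB box. Chromosome 17 held 24, of which 20 had the box. An annotated gene on the same strand overlapped 44 members and one on the other strand overlapped 125. The library kit keeps the strand, but the sources used here do not give whether counting used it.

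The RNA libraries held 2.73 to 28.3 M counts, with DMSO replicate 1 the shallowest, the RIP libraries 19.8 to 41.4 M and the IgG libraries 8.87 to 24.5 M. All 10 macrophage markers checked were tested in total RNA, and none of the 7 lymphocyte or 9 epithelial and fibroblast markers reached the level needed. Mitochondrially encoded genes took 12.1 to 22.4% of counts in RNA, 0.559 to 1.86% in RIP and 5.31 to 6.13% in IgG. The labels do not say whether replicates came from separate cultures, so p-values measure the spread between libraries, which may be technical. Differences were tested with edgeR over all genes, and a gene was called at a false discovery rate (FDR) under 0.05. All 200 members passed the filter on low counts in every comparison. Levels are CPM, counts scaled to library size, on 1 TMM scale over the 27 libraries.

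Members differed widely in RNA level. The median over the 12 RNA libraries was 7.80 CPM, against 18.1 for the 10724 coding genes tested. Per kilobase of exon the median was 1.24 CPM for members and 2.74 for those coding genes. Members with a KRAB box had a median of 0.832 CPM per kilobase and the others 1.85. The 10 members with the most reads took 31.9% of all reads of the 200. The 5 highest per kilobase had no KRAB box. They were Zfp106, an RNA-binding protein (28.5 CPM per kilobase), Zfp830, a spliceosome-associated protein (11.997), Zfp710 (10.5), Zfp598, a ubiquitin ligase that senses collided ribosomes (8.60), and Zfp207, a spindle assembly factor also called BuGZ (8.45).

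The share of raw counts that fell on the 200 genes was lower in LPS than in DMSO in both assays, but it moved with library composition, and on the TMM scale used for all other levels the DMSO and LPS groups of RNA overlapped. In total RNA the share in DMSO was 0.458% ± 0.0297, that in LPS 0.344% ± 0.0207, and with TM7nox added 0.367% ± 0.00909 (SD, n = 4 each). In RIP it was 0.870% ± 0.104, 0.429% ± 0.0195 and 0.532% ± 0.0240 (SD, n = 4 each), and in the single IgG libraries 0.550%, 0.387% and 0.418%. The raw shares of DMSO and LPS libraries did not overlap in either assay. Divided by the TMM factors, the members' summed level was 0.3001% ± 0.0172, 0.282% ± 0.00556 and 0.308% ± 0.0113 of the scaled library in RNA, where DMSO (0.275 to 0.315%) and LPS (0.274 to 0.287%) overlapped, although LPS was below DMSO in each of the 4 same-numbered pairs. In RIP it was 0.909% ± 0.111, 0.704% ± 0.0447 and 0.916% ± 0.120 (SD, n = 4 each), with every DMSO library above every LPS library and overlapping LPS + TM7nox. Without the mitochondrially encoded genes and Actb, which together take a different part of each library, the shares were 0.573%, 0.412% and 0.448% in RNA and 0.965%, 0.515% and 0.597% in RIP. In such bulk libraries, fewer cells with a transcript and less of it per cell cannot be told apart.

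**Figure D1:**
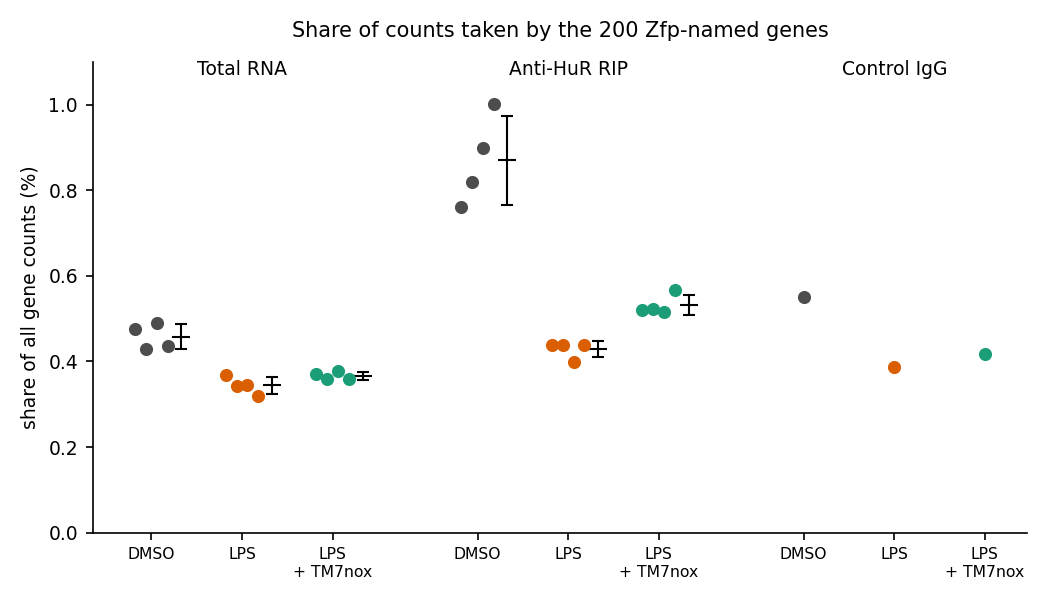
Share of all gene counts (%, vertical axis) taken by the 200 genes in each of the 27 libraries, by assay and treatment. Points are libraries and the bars at their right are mean ± SD (n = 4), with 1 library per treatment for IgG. The raw shares of the DMSO libraries lie above both LPS groups in RNA and in RIP, while on the TMM scale the DMSO and LPS groups of RNA overlapped.

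The first comparison asked how the members' RNA responds to LPS. Of the 200 members, 16 rose and 51 fell in total RNA of LPS-treated cells against DMSO, beside 42.0% of all 12369 genes tested being called (20.2% higher and 21.7% lower). The median log2 fold change of the members was -0.21, and that of all genes tested was -0.04. The members that rose did so by a median of 0.66 on the log2 scale, and 3 of the 16 by at least 1. Those that fell had a median of -0.81, and 13 of the 51 reached -1. Members with a KRAB box had a median of -0.36, with 4 higher and 29 lower of 95, and those without one -0.09, with 12 higher and 22 lower of 105. Members with a KRAB box also had fewer reads (median 4.96 against 13.2 CPM), and the part of read depth in this split was not tested. The 24 members on chromosome 17 had a median of -0.36, with 1 higher and 7 lower, and the 50 on chromosome 7 had -0.23, with 4 and 13. Of the 192 Zfp-named coding genes below the 200, 97 could be tested, and 0 of them were higher and 20 lower. With the replicate number as a block 90 members were called (25 higher and 65 lower), beside 52.4% of all genes. In replicates 1 and 2 alone 8 members were called, beside 13.4% of all genes, and in replicates 3 and 4 alone 107, beside 58.7%.

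**Figure D2:**
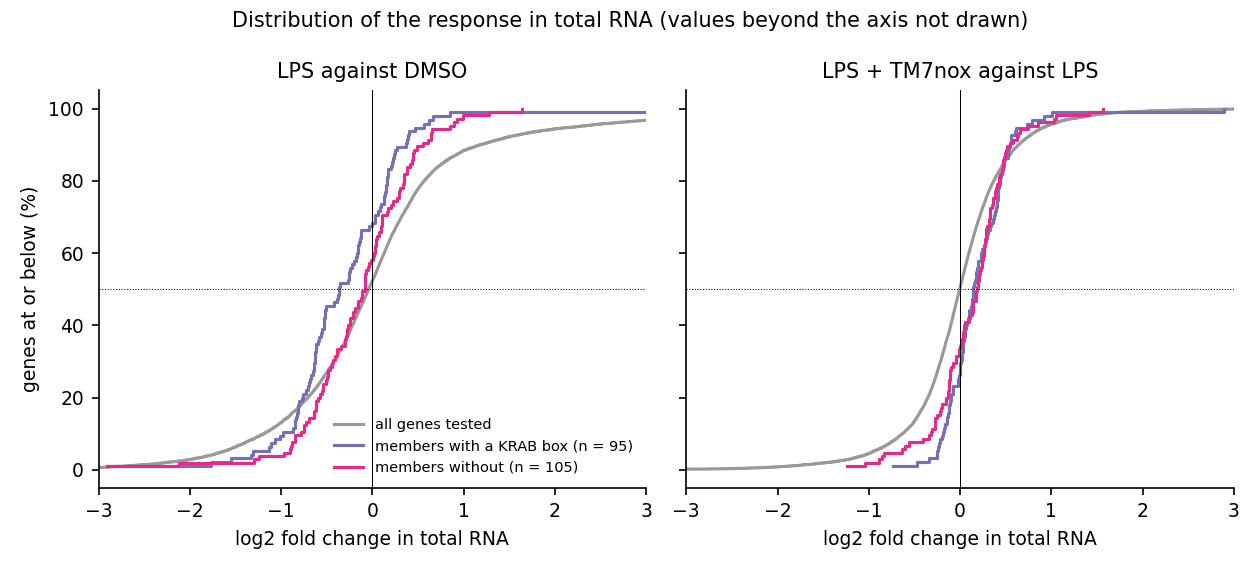
Cumulative distribution (vertical axis, % of genes) of the log2 fold change in total RNA (horizontal axis) for LPS against DMSO and for LPS + TM7nox against LPS. The curve of members with a KRAB box crosses 50% at -0.36 under LPS and that of all genes at -0.04. Under TM7nox both member curves lie to the right of all genes over the middle of the range.

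The clearest rise was that of Zfp811, a gene with a KRAB box and 13 fingers at chr17:33014650-33028952 on the minus strand of GRCm39, where 2 unnamed Gm models overlap it on the same strand. It had 0 counts in all 4 DMSO libraries of total RNA. In LPS it stood at 3.21, 4.55, 2.34 and 1.87 CPM in replicates 1 to 4, and in LPS + TM7nox at 4.91, 3.38, 4.15 and 3.65 CPM. Every LPS library was above every DMSO library. Against a floor of 3 counts over the DMSO group (0.0286 CPM) its RNA was at least 104-fold higher in LPS and at least 140-fold higher in LPS + TM7nox. RIP showed traces in DMSO (0.102, 0.0662, 0.0607 and 0.151 CPM) and 4.07, 3.78, 2.23 and 1.85 CPM in LPS, a log2 fold change of 4.96 ± 0.44 (SE; FDR 2.1e-07). In IgG the levels were 0.104, 2.72 and 4.39 CPM in DMSO, LPS and LPS + TM7nox. Its place among the 200 rests on reads from the LPS-treated cells alone.

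Zfp513, a regulator known from retinal disease (chr5:31351826-31359673, minus strand; Snx17 overlaps it on the other strand), stood at 7.42, 7.39, 5.53 and 5.62 CPM in DMSO and at 21.2, 17.7, 21.2 and 21.4 CPM in LPS. The groups did not overlap, and the log2 fold change was 1.64 ± 0.17 (SE; FDR 2.8e-06). In LPS + TM7nox it was again 16.9 to 24.9 CPM, with a log2 difference from LPS of -0.00 ± 0.16 (FDR 0.99). Zfp281, a transcription factor that restrains pluripotency genes (chr1:136552639-136560840, plus strand), stood at 13.6, 18.6, 19.3 and 17.1 CPM in DMSO and at 42.5, 44.3, 42.9 and 42.1 CPM in LPS. All 4 LPS libraries were above all DMSO libraries by more than the spread within either group (log2 1.28 ± 0.13, FDR 2.1e-06). The smaller members Zfp821 (2.59 ± 0.495 to 5.41 ± 0.873 CPM, SD, n = 4 each; log2 0.99, FDR 0.0023) and Zfp691 (2.89 ± 0.398 to 5.53 ± 0.930 CPM; log2 0.89, FDR 0.0026) rose as well. Zfp207, Zfp330, Zfp821 and Zfp691 were not called in replicates 1 and 2 alone. The calls of Zfp513 and Zfp281 held under every alternative tried.

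Among members that fell, Zfp362, which is related to Zfp384 (chr4:128666879-128700374, minus strand), had the largest change of those whose groups did not overlap. It stood at 14.6, 12.1, 12.001 and 12.7 CPM in DMSO and at 1.24, 2.29, 1.37 and 2.03 CPM in LPS (log2 -2.91 ± 0.34, FDR 9.9e-06). Zfp398, which has a KRAB box (chr6:47812595-47850471, plus strand), fell from 8.05, 7.42, 8.56 and 7.23 to 1.58, 1.87, 1.58 and 1.62 CPM (log2 -2.26 ± 0.21, FDR 1.1e-06). In both genes the highest LPS library was below the lowest DMSO library. Zfp971 (log2 -1.77), Zfp61 (-1.55) and Zfp111 (-1.33), all with a KRAB box, followed. Zfp971 (FDR 0.184) and Zfp61 (0.136) were not called in replicates 1 and 2 alone. Zfp111 (chr7:23892417-23910868, minus strand) went from 14.6, 16.5, 15.7 and 15.5 to 6.46, 7.19, 5.81 and 5.83 CPM. The libraries of the groups were again apart.

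By role, the 9 members that act on RNA, ribosomes or the spindle split 3 higher and 1 lower, a share near that of all genes (42.0% called). Zfp622, a factor of the large ribosomal subunit, rose by 0.49 ± 0.17 (SE, log2; FDR 0.036), but not when any of 6 libraries was left out in turn (FDR 0.0514 to 0.0968): DMSO replicates 1 and 3, and all LPS replicates. Zfp207 rose by 0.64 ± 0.14 (FDR 0.0021), from 74.4, 108, 97.6 and 89.9 to 131, 150, 155 and 155 CPM, with no overlap. Zfp830 rose by 0.44 ± 0.14 (FDR 0.017), a call lost without LPS replicate 1 (FDR 0.0511) and in replicates 1 and 2 alone (0.267), and Zfp326, a splicing regulator, fell by 0.61 on the log2 scale (FDR 0.0021, and 0.128 in replicates 1 and 2 alone). Zfp598, Zfp638 and Zfp346 were not called. Zfp106 (log2 -0.22 ± 0.12, FDR 0.15) was called only with the replicate block (FDR 0.0377) and in replicates 3 and 4 alone (0.0212). Zfp385a (log2 -0.69 ± 0.27, FDR 0.054) was called with the block (0.0203), with no filter on low counts (0.0115), in replicates 3 and 4 alone (2.1e-04) and without DMSO replicate 1 (0.00381). Outside these 9, the nucleolar protein Zfp330 stood at 36.2 ± 4.70 CPM in DMSO and 56.5 ± 6.87 CPM in LPS (log2 0.61, FDR 0.0010).

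A list by role held 27 transcription and chromatin regulators, entered as without a KRAB box and not sorted by the KRAB search. Of these, beside 20.2% of all genes higher and 21.7% lower, 3 rose (Zfp281, Zfp513 and, by 0.35, Zfp143, an activator bound at many promoters) and 6 fell. Besides Zfp362 these were Zfp219, a repressor (log2 -1.29 ± 0.23, FDR 0.00045), Zfp652, a partner of the corepressor Cbfa2t3 (-1.24 ± 0.16, FDR 2.7e-05), Zfp608 (-0.97, FDR 0.021), Zfp503, a developmental repressor (-0.88, FDR 0.046), and Zfp827, which recruits the NuRD complex (-0.85, FDR 0.00092). Zfp652 (chr11:95603479-95725941, plus strand; Phospho1 overlaps it on the same strand and Abi3 on the other) went from 29.5, 42.8, 50.9 and 54.5 to 18.5, 19.8, 19.2 and 19.7 CPM. Zfp219 (FDR 0.064) and Zfp827 (0.142) were not called in replicates 1 and 2 alone. The DMSO libraries of Zfp652 were widely spread and those of LPS close together. The call of Zfp143 was lost without DMSO replicate 1, 2 or 3 or any LPS replicate (FDR 0.0625 to 0.0914). That of Zfp503 was lost without DMSO replicate 1, 2 or 4 or any LPS replicate (0.0501 to 0.11), and that of Zfp608 without DMSO replicate 2, 3 or 4 or LPS replicate 3 (0.0506 to 0.0898). Some regulators not called gained a call under alternatives. With positive values these were mainly Zfp410 (in 6), Zfp335 (5), Zfp276 (4) and Zfp592 (4), and with negative values Zfp148 (3).

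Of 4 KRAB genes with known silencing targets, Zfp809, which represses murine leukaemia proviruses, fell by 0.63 on the log2 scale (FDR 0.014; 21.5 ± 2.6 to 14.1 ± 3.0 CPM, SD, n = 4 each). Zfp932 fell by 0.87 (FDR 0.0091), Zfp568, which represses a placental Igf2 promoter, rose by 0.62 ± 0.21 (FDR 0.026), and Zfp445, an imprinting factor, was at -0.16 ± 0.16 (FDR 0.46). Zfp809 (FDR 0.294) and Zfp932 (0.232) were not called in replicates 1 and 2 alone. The call of Zfp568 was lost without DMSO replicate 2, 3 or 4 or LPS replicate 3 or 4 (FDR 0.0516 to 0.0829). The corepressor genes that KRAB proteins depend on are no members. Of 22 listed, 3 rose and 10 fell under LPS, with a median of -0.22, beside 20.2% and 21.7% of all genes. With TM7nox, 1 rose and 4 fell in RNA against LPS, and 18 of the 22 had a negative value, with a median of -0.23. In RIP this did not hold with TM7nox: 1 was higher and 0 lower (8.64% and 7.61% of all genes), and 13 of the 22 had a positive value (median 0.04). In RNA 7.37% of all genes were higher and 6.4% lower with TM7nox, and 6223 of 12369 had a negative value. Trim28 went from 155 to 84.3 CPM (log2 -0.91 ± 0.12, FDR 5.0e-05), Setdb1 from 37.4 to 25.3 (-0.60) and Cbx5, encoding the heterochromatin protein HP1 alpha, from 97.7 to 33.5 (-1.57). Daxx, a chaperone of histone H3.3, rose from 60.2 to 400 CPM (log2 2.70 ± 0.22, FDR 3.1e-07).

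The second comparison asked what TM7nox changes in LPS-treated cells, and it shares the LPS libraries with the first. In total RNA 17 members rose and 5 fell against LPS alone, beside 13.8% of all genes tested being called (7.37% higher and 6.4% lower). The median log2 fold change was 0.17 for the members and 0.00 for all genes. It was 0.14 in members with a KRAB box (5 higher and 1 lower) and 0.19 in the others (12 and 4), which include Zfp180 and Zfp420. The libraries of the groups did not overlap for any of the 22, nor for 92.8% of all genes called. All 8 members with a SCAN domain had a positive value, with a median of 0.43, beside 138 of the 200 members and 6146 of 12369 genes, and 1 of them was called. In RIP 6 of these 8 were positive, with a median of 0.21, beside 132 of the 200 members. In total RNA, with the replicate number as a block, 36 members were called, beside 25.0% of all genes. In replicates 1 and 2 alone edgeR called 0 (15 at an unadjusted p under 0.05), beside 1.35% of all genes, and in replicates 3 and 4 alone 46, beside 27.9%.

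Zfp945, a gene with a KRAB box and 18 fingers (chr17:23064557-23086292, minus strand), had the largest rise. It stood at 0.642, 1.45, 0.756 and 0.811 CPM in LPS and at 6.27, 8.26, 6.27 and 6.67 CPM in LPS + TM7nox (log2 2.90 ± 0.42, FDR 4.7e-04). In DMSO it was at 0, 1.60, 1.38 and 1.81 CPM, so both groups without the compound lay below every library with it. Zfp180 (chr7:23781314-23807138, plus strand) went from 17.9, 15.2, 16.9 and 16.2 to 31.1, 34.7, 34.6 and 34.9 CPM. Its log2 fold change was 1.03 ± 0.11 (FDR 3.9e-05), and its DMSO libraries, at 18.02 to 21.6 CPM, were also below those with the compound. Zfp420 (chr7:29559392-29576847, plus strand) rose from 0.855, 2.998, 2.34 and 2.62 to 4.66, 6.24, 6.77 and 8.54 CPM (log2 1.57 ± 0.39, FDR 0.016). Without LPS + TM7nox replicate 4 its FDR was 0.0569. Zfp503 (log2 1.05, FDR 0.045) lost its call without any 1 of the LPS replicates or TM7nox replicate 1 or 2 (FDR 0.0651 to 0.123).

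Several members were called in both RNA comparisons, and their values are only set side by side, because the comparisons share the LPS libraries. Zfp362 had log2 values of -2.91 under LPS and 1.41 ± 0.33 (FDR 0.011) on addition of TM7nox. With the compound it stood at 7.58, 5.40, 2.37 and 3.23 CPM, above every LPS library and below every DMSO library. Zfp281 had 1.28 and -0.89 ± 0.12 (FDR 3.2e-04), and with the compound it stood at 19.9, 21.9, 27.4 and 23.2 CPM, between the DMSO and LPS libraries. Zfp710 had -0.75 and -0.83 ± 0.20 (FDR 0.012), with 191, 142, 158 and 159 CPM in DMSO, 140, 88.0, 86.9 and 81.9 in LPS and 72.2, 54.9, 45.9 and 50.2 with the compound. It was lowest with TM7nox in every replicate, and LPS replicate 1 stood far above the other LPS libraries. Zfp608 (-0.97 and -1.04) and Zfp958 (-1.30 and -0.73) had 2 negative values, while Zfp59 (-0.83 and 1.01), Zfp503 (-0.88 and 1.05) and Zfp827 (-0.85 and 0.58) had one of each sign, as did Zfp180 (-0.30 and 1.03), Zfp202 (-0.66 and 0.92) and Zfp952 (-0.52 and 0.78). Zfp655 (0.85 and 0.66) and Zfp691 (0.89 and 0.62) had 2 positive values. The LPS call of Zfp180 was lost without LPS replicate 2, 3 or 4 or DMSO replicate 3 or 4 (FDR 0.0716 to 0.108), and the TM7nox call of Zfp691 without any 1 of its libraries other than TM7nox replicate 2 (0.0616 to 0.127). The TM7nox call of Zfp608 was lost without any 1 of its libraries other than LPS replicate 1 (FDR 0.0546 to 0.133), and that of Zfp958 without LPS replicate 2 or TM7nox replicate 3 (0.0572 to 0.0595). That of Zfp827 was lost without LPS replicate 1, 3 or 4 or TM7nox replicate 2 or 3 (0.0506 to 0.0924). The fifth member that fell was Zfp217, found in CoREST corepressor complexes. It went from 32.8, 31.0, 30.2 and 32.0 to 17.4, 19.8, 21.6 and 22.1 CPM (log2 -0.63 ± 0.11, FDR 0.0018), with 27.4 to 31.9 CPM in DMSO. Zfp945, Zfp180, Zfp362, Zfp281, Zfp710 and Zfp217 were not called in replicates 1 and 2 alone.

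**Figure D3:**
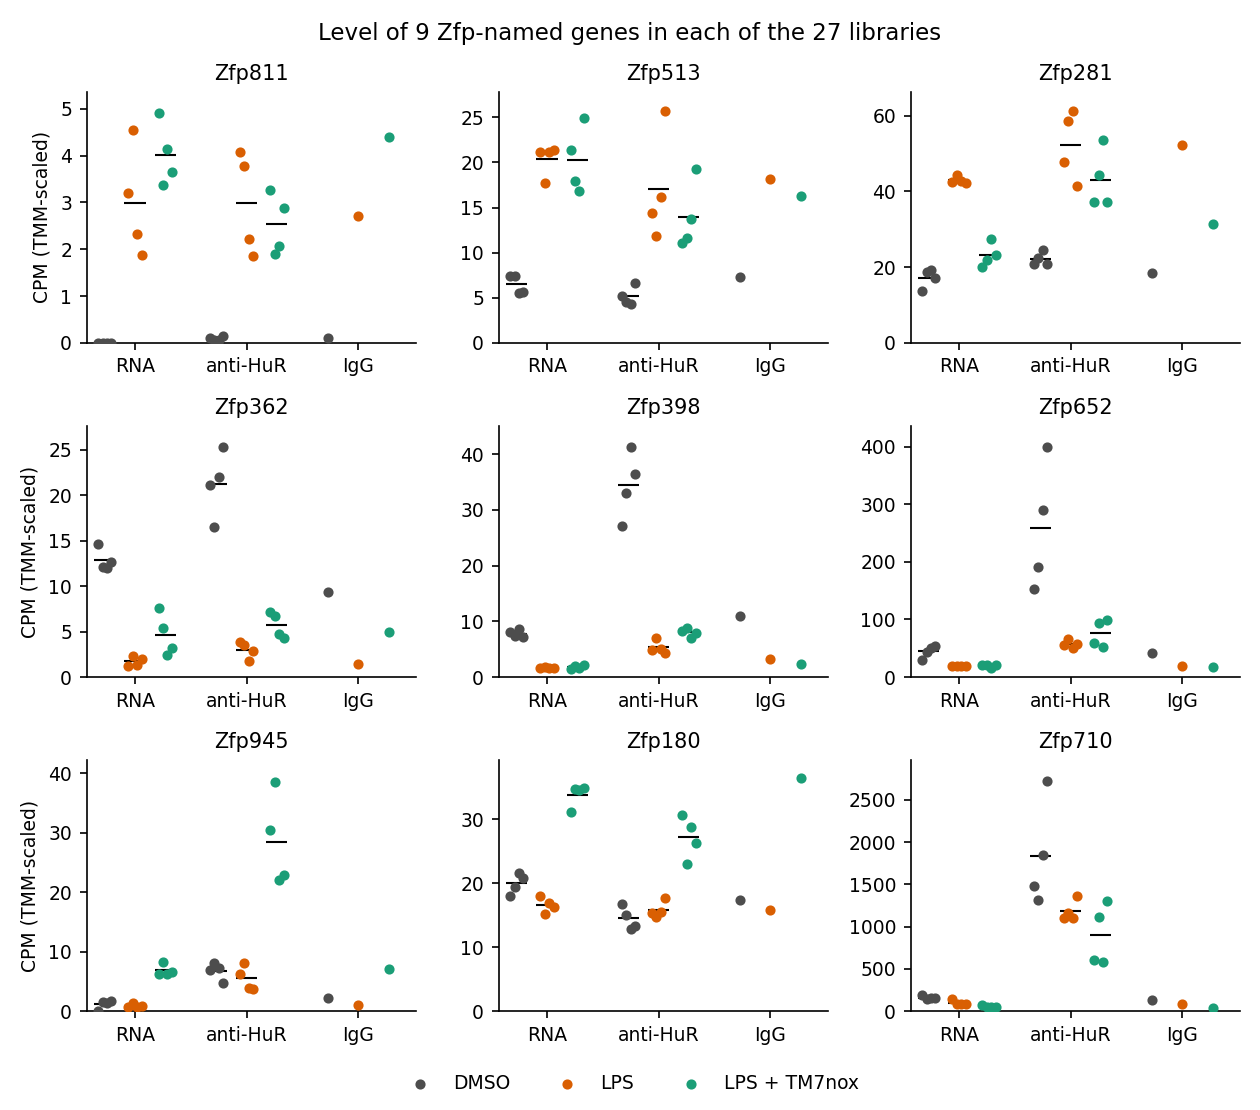
Level of 9 members in each of the 27 libraries (vertical axis, TMM-scaled CPM, linear from 0), grouped by assay and coloured by treatment. Points are libraries and lines are means of 4, with 1 library per treatment for IgG. Zfp811 is at 0 in all DMSO RNA libraries, Zfp945 and Zfp180 are high with TM7nox in all assays, and Zfp652 and Zfp710 are far higher in anti-HuR RIP than in RNA.

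What anti-HuR recovered was compared between treatments in the same way. Under LPS 19 members rose and 56 fell in RIP, beside 44.7% of all 13614 genes tested being called (23.5% higher and 21.2% lower). The medians were -0.20 for members and 0.00 for all genes. Members with a KRAB box had -0.34 (5 higher and 32 lower) and the others -0.13 (14 and 24). Of the members that rose, 12 did so in both assays, which is 75.0% of the 16 in RNA and 63.2% of the 19 in RIP. Of those that fell, 30 did so in both, 58.8% of 51 and 53.6% of 56. Over all genes tested in both assays these shares were 85.1% and 67.2% for rises and 66.5% and 73.2% for falls. No member was called in opposite directions by edgeR in the 2 assays. Zfp398 fell in RIP from 27.1, 33.0, 41.3 and 36.5 to 4.90, 6.99, 5.13 and 4.40 CPM (log2 -2.70 ± 0.19, FDR 1.6e-08). Zfp652 fell from 153, 192, 291 and 400 to 55.6, 66.8, 51.3 and 57.5 CPM (log2 -2.18 ± 0.29, FDR 1.9e-05). Zfp362 (-2.82) and Zfp111 (-1.57) were close to their RNA values, and Zfp330 had 1.15 ± 0.21 in RIP and 0.61 ± 0.12 in RNA. With the replicate number as a block 111 members were called in RIP (31 higher and 80 lower), beside 59.3% of all genes. In replicates 1 and 2 alone 35 members were called, beside 24.0% of all genes, and in replicates 3 and 4 alone 73, beside 40.7%.

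**Figure D4:**
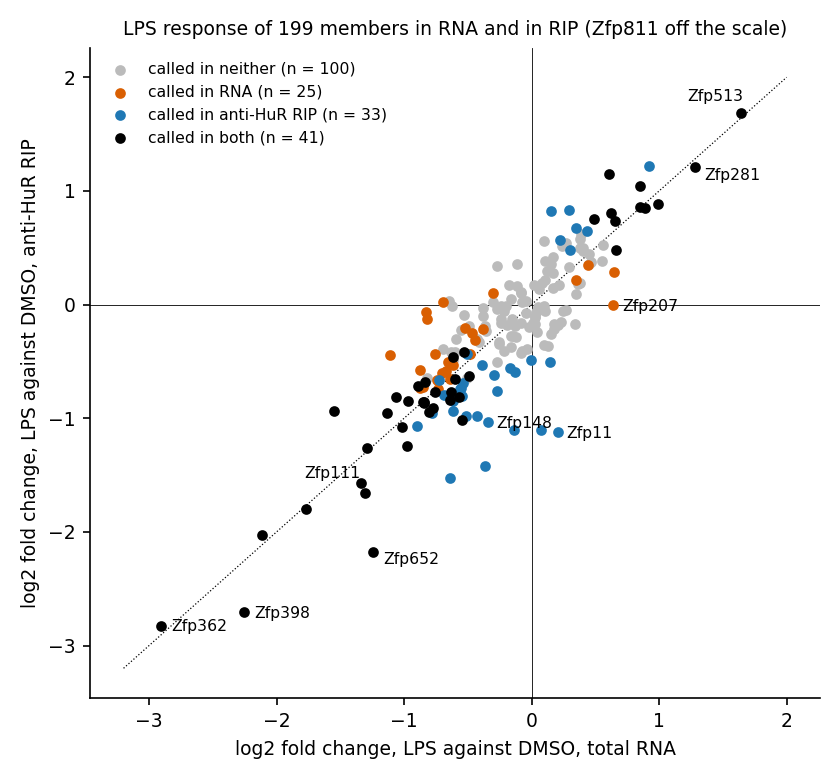
Log2 fold change of LPS against DMSO in total RNA (horizontal axis) and in anti-HuR RIP (vertical axis) for 199 members, coloured by where they were called. The dotted line marks equal change, and Zfp811 is off the scale. Most members lie near the line, Zfp652 lies below it at -1.24 and -2.18, and Zfp207 is at 0.64 in RNA and -0.00 in RIP.

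With TM7nox 25 members rose and 7 fell in RIP against LPS alone, beside 16.2% of all genes being called (8.64% higher and 7.61% lower). The medians were 0.15 for members and -0.03 for all genes. The count depends on the fit and the libraries, as does that of all genes. It was 65 with the replicate number as a block (33.6% of all genes), 5 in replicates 1 and 2 alone (5.59%) and 10 in replicates 3 and 4 alone (7.87%). It was 20 without LPS replicate 1, 21 without LPS replicate 4 and 21 without LPS + TM7nox replicate 2. Of those that rose, 9 also rose in RNA (36.0% of 25 in RIP and 52.9% of 17 in RNA), and of those that fell, Zfp608 did (14.3% of 7 and 20.0% of 5). Over all genes tested in both assays these shares were 50.7% of RIP and 61.6% of RNA for rises, and 45.7% and 57.9% for falls.

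Zfp945 went in RIP from 6.29, 8.20, 3.99 and 3.77 to 30.5, 38.6, 22.0 and 22.9 CPM (log2 2.31 ± 0.27, FDR 5.3e-05). Zfp369, a SCAN and KRAB protein that binds the neurotrophin receptor p75 (chr13:65426610-65452036, plus strand), rose from 23.4, 25.7, 16.7 and 18.4 to 64.8, 56.5, 33.9 and 59.6 CPM (log2 1.31 ± 0.22, FDR 0.0010). It had fallen under LPS, from 49.1 ± 7.99 CPM in DMSO. Zfp113 (chr5:138137964-138154007, minus strand), with a KRAB box, rose from 8.10, 10.7, 8.70 and 8.92 to 17.6, 20.3, 16.0 and 23.6 CPM (log2 1.05 ± 0.18, FDR 0.0011). In these 3 members every library with the compound was above every LPS library, and the calls held under every alternative tried. Zfp106 (chr2:120336470-120394360, minus strand; Capn3 overlaps it on the other strand) rose from 728, 851, 966 and 835 to 1195, 1603, 1472 and 1912 CPM (log2 0.83 ± 0.22, FDR 0.015). Its RNA difference was 0.31 ± 0.12 (FDR 0.095), called by DESeq2 (0.0425), with the replicate block (0.0117) and in replicates 3 and 4 alone (0.0142). The RIP call was lost within either pair of replicates (FDR 0.158 and 0.0779). Zfp420 (1.14) and Zfp516, a brown fat regulator (0.97), also rose. The largest falls without overlap, Zfp296 (-1.30), Zfp28 (-1.04), Zfp821 (-0.98), Zfp608 (-0.75) and Zfp961 (-0.74), were in members at a mean of 9.17 CPM or less in LPS. These calls are near the threshold. That of Zfp516 was lost without LPS replicate 1, 2 or 3 or TM7nox replicate 3 or 4 (FDR 0.0666 to 0.156), and that of Zfp28 without LPS replicate 1, 2 or 4 or TM7nox replicate 2, 3 or 4 (0.0546 to 0.183). That of Zfp296 was lost without LPS replicate 1 or TM7nox replicate 1 or 2 (0.0649 to 0.144), and its value was -2.15 in replicates 1 and 2 alone and -0.36 in replicates 3 and 4 alone. That of Zfp821 was lost within either pair of replicates (0.117 and 0.11). That of Zfp608 was lost without LPS replicate 2 or TM7nox replicate 1 or 3 (0.0601 to 0.079), and that of Zfp961 without LPS replicate 1 or 2 or TM7nox replicate 2 or 4 (0.0545 to 0.0662).

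Recovery by anti-HuR was read as RIP over RNA within a treatment, on a scale set by the typical gene. In DMSO 88 members were higher in RIP and 39 lower, beside 70.4% of 14311 genes tested being called (37.0% higher and 33.4% lower). The median log2 ratio was 0.20 for members and 0.04 for all genes, an order that turned with no filter on low counts (-0.01 and 0.41). The ratio holds the RNA counts that chose the members, and the 101 tested Zfp-named genes below the 200 had a median of 0.39. The members higher in RIP had a median of 1.84, and 64 of the 88 were at least 1. Those lower in RIP had a median of -0.80. The ratio varied little with the KRAB box, with medians of 0.19 with it and 0.25 without it. Of the 27 regulators listed as without a KRAB box, 16 were higher and 4 lower, with a median of 0.85. In LPS 75 members were higher and 33 lower, beside 63.7% of all genes being called (32.9% higher and 30.8% lower). In LPS + TM7nox 79 were higher and 63 lower, beside 69.9% (35.2% and 34.8%). With DESeq2's size factors in place of TMM the counts became 94 and 31 in DMSO, beside 69.7% of all genes being called. They became 89 and 20 in LPS, beside 62.0%, and 86 and 40 in LPS + TM7nox, beside 68.1%. That scaling moved the median of all genes by 0.16 in DMSO, 0.18 in LPS and 0.22 in LPS + TM7nox.

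Members far apart in this ratio are shown by the most U-rich 30-base window of their 3′ UTR, since HuR binds U-rich RNA. Each is on the gene's strand of GRCm39, written as DNA with T in capitals. The first 3 were higher in RIP, the next 3 lower, and Zfp207 was at the typical gene.
Zfp26 (chr9:20342545-20342574, minus strand): TTcTcTTTTTTTTTTTTTTTTTTTTTTTTT
Zfp251 (chr15:76736225-76736254, minus strand): TTTggTTTgTTTTTgTTgTTgTTTTTgTTT
Zfp710 (chr7:79741400-79741429, plus strand): TTTTgggTTTTTTTTTTTTTTTTTggTTTT
Zfp622 (chr15:25998412-25998441, plus strand): TTTggTTTgaaTTcTaTTccTTcaTcTTTT
Zfp330 (chr8:83490209-83490238, minus strand): TacTgagTTcTTgTTTTaTcaacTTaTTTT
Zfp143 (chr7:109694384-109694413, plus strand): TTTTgaTTTTTTgcTacTgTTTTTTaTgaT
Zfp207 (chr11:80294142-80294171, plus strand): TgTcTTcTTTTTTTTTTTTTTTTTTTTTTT
The windows of Zfp26 and Zfp710 hold unbroken runs of 25 and 17 T, and the longest runs of Zfp622 and Zfp330 are 4. Zfp251 and Zfp143 do not follow this order, since the longest run in the window of Zfp251, high in RIP, is 5 and that of Zfp143, low in RIP, is 6. The window of Zfp207 is nearly as T-rich as that of Zfp26, at 27 against 28 of 30 bases.

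Zfp26, with a KRAB box and 22 fingers (chr9:20339745-20371498), stood at 19.3, 13.6, 13.8 and 14.2 CPM in DMSO RNA and at 217, 279, 244 and 247 CPM in DMSO RIP. The log2 ratio was 4.16 ± 0.19 (SE; FDR 1.8e-15), and IgG libraries gave 13.5, 15.7 and 10.8 CPM, at the level of RNA. Zfp280c (chrX:47630488-47683525) stood at 12.3, 17.8, 17.7 and 14.5 CPM in RNA and 248, 277, 248 and 167 CPM in RIP (log2 4.01 ± 0.22, FDR 2.8e-14). Zfp251, with a KRAB box (chr15:76735489-76755712), stood at 3.60, 11.5, 13.6 and 12.4 CPM in RNA and 139, 135, 174 and 217 CPM in RIP (log2 4.04 ± 0.30, FDR 1.0e-11). RIP and RNA libraries were far apart in these 3 genes, although the shallow DMSO replicate 1 had the lowest Zfp251 RNA. Zfp710 (chr7:79674562-79743921; Idh2 overlaps it on the other strand) reached 1480, 1315, 1848 and 2717 CPM in DMSO RIP, against 163 ± 20.8 CPM (SD, n = 4) in RNA, a log2 ratio of 3.63 ± 0.27 (FDR 9.6e-12). The fitted ratio of Zfp811 (4.28) sets RIP traces against 0 RNA counts and gives no fold.

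At the other end, Zfp622 (chr15:25984452-25998568) stood at 10.4, 20.7, 15.5 and 21.3 CPM in DMSO RNA and 5.42, 5.29, 4.43 and 7.18 CPM in RIP (log2 -1.53 ± 0.25, FDR 6.1e-06). Its IgG levels were 16.0, 21.6 and 22.6 CPM, so RIP was also below IgG. Zfp330 (chr8:83490073-83501355) stood at 29.3, 38.9, 39.1 and 37.8 CPM in RNA and 16.0, 13.2, 17.7 and 14.8 CPM in RIP (log2 -1.13 ± 0.18, FDR 6.3e-06). Zfp580 (-1.19), Zfp414 (-1.19) and Zfp143 (-1.16) were the other members with the lowest ratios among those whose libraries did not overlap. Zfp830 was at -0.94 and Zfp598 at -0.29 (FDR 0.13).

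Across 196 members with a 3′ UTR of at least 50 bases, the ratio in DMSO was higher with more runs of 7 or more U. The 79 members without a run had a median of -0.29, with 12 higher and 26 lower, beside 756 and 3101 of 5728 coding genes. The 71 with 1 to 2 runs had 0.58, with 39 and 8, beside 1552 and 996 of 3657. The 46 with 3 or more had 2.01, with 37 and 3, beside 1204 and 153 of 1611. Longer UTRs hold more runs. Among members with UTRs of 1000 to 2000 bases the medians were -0.33 (32 members), 0.91 (16) and 2.01 (6), and with 2000 to 4000 bases -0.08 (14), 0.34 (29) and 1.71 (17). Spearman's rho over the 196 was 0.57 with runs (Pearson's r 0.50), 0.34 with UTR length, 0.33 with the U share and 0.09 with the number of fingers. Over 10996 coding genes tested, rho with runs was 0.49 and the 3 medians were -0.72, 0.29 and 1.81. These are correlations across genes from the same libraries, and genes are not independent replicates. Members could depart from the trend. Zfp207, with 13 runs, had a ratio of 0.07 ± 0.19 (FDR 0.76), Zfp318, with 9 runs, had -0.24, and Zfp251 and Zfp710 had only 2 runs each.

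**Figure D5:**
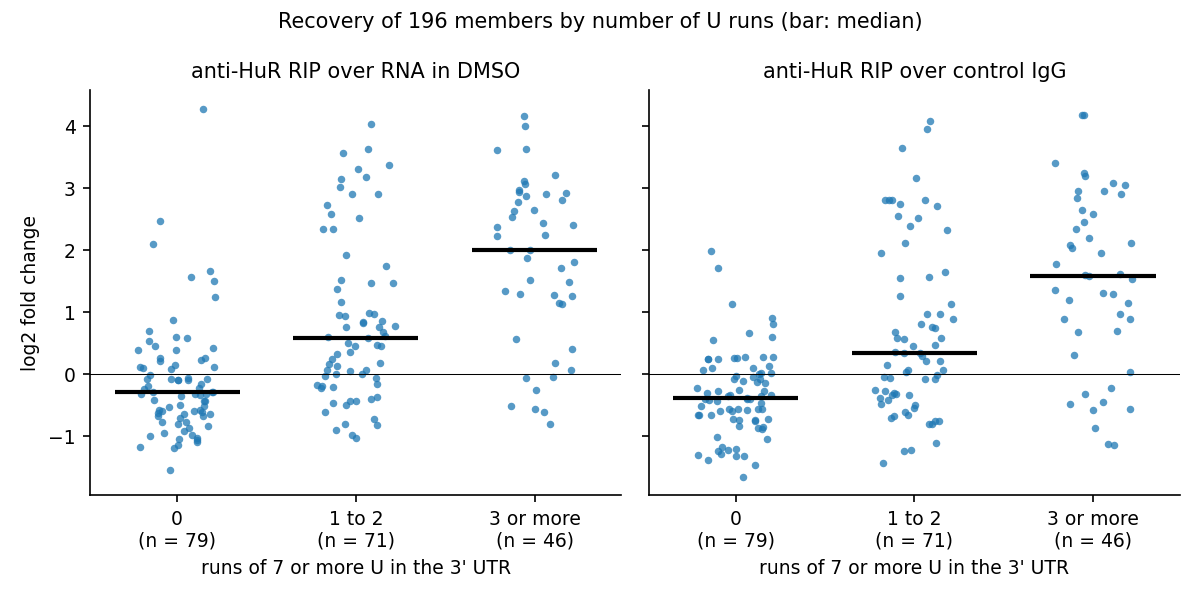
Log2 fold change (vertical axis) of anti-HuR RIP over RNA in DMSO and of anti-HuR RIP over control IgG for 196 members, by the number of runs of 7 or more U in the 3′ UTR. Points are members and bars are medians, which rise from -0.29 to 2.01 over RNA and from -0.38 to 1.59 over IgG.

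The comparison with IgG does not use the RNA counts that chose the members. It sets 12 anti-HuR libraries against 3 IgG libraries, all of replicate 3, with treatment as a covariate, so antibody and replicate are partly confounded. Anti-HuR was higher for 74 members and lower for 59, beside 68.1% of 14973 genes tested being called (33.8% higher and 34.2% lower). The median was 0.03 for members and 0.00 for all genes. The largest values were those of Zfp26 (4.18 ± 0.25, FDR 5.2e-11), Zfp280c (4.17 ± 0.25, FDR 6.5e-11) and Zfp251 (4.09 ± 0.26, FDR 9.2e-11). Zfp26 averaged 249.5 CPM over the anti-HuR libraries and 13.3 CPM over the IgG libraries. The lowest among members whose libraries did not overlap were Zfp764 (-1.45), Zfp282 (-1.43) and Zfp59 (-1.38), all with a KRAB box. By runs of U the medians were -0.38 (7 higher and 34 lower of 79), 0.34 (32 and 14 of 71) and 1.59 (35 and 8 of 46). Over coding genes they were -0.72 (699 and 3289 of 5818), 0.20 (1524 and 1077 of 3716) and 1.66 (1167 and 195 of 1645). The trend was therefore not particular to the members.

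Whether recovery relative to RNA changed with treatment was tested as an interaction. For LPS edgeR called 0 members, beside 0.0419% of all genes being called (0.014% higher and 0.028% lower). In this fit 15 members were at an unadjusted p under 0.05, all lower. The share of all genes at that p was not counted for either interaction, and chance alone would give a share of about 0.05. With no filter on low counts 4 of 13 such members were higher, and in replicates 3 and 4 alone 5 of 21. DESeq2 called 2 members (15 at an unadjusted p under 0.05, 2 of them higher), beside 0.522% of all genes. The fit with the replicate block called 1 (25, 2 of them higher), beside 0.349%. These were Zfp11 and Zfp668 by DESeq2 and Zfp668 with the block (log2 -1.25, FDR 0.0366), and both were chosen after their values were seen. Zfp668 went in RIP from 31.1, 27.1, 32.9 and 35.3 CPM in DMSO to 14.2, 16.2, 13.98 and 15.1 CPM in LPS. In RNA it was at 3.82, 7.62, 6.47 and 7.30 CPM in DMSO and 8.04, 6.45, 6.77 and 6.49 CPM in LPS. RIP fell without overlap while RNA overlapped, and the edgeR interaction was -1.26 ± 0.28 (FDR 0.116). Zfp652 had -1.04 ± 0.36 (FDR 0.53). For TM7nox edgeR called 0 members, with 10 at an unadjusted p under 0.05 (16 by DESeq2 and 24 with the block, 0 called by either), and 0.00699% of all genes were called. Neither interaction had a member called by edgeR when any 1 library was left out.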

How the data were processed

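Total RNA, anti-HuR RIP and IgG libraries were grouped by the treatment and assay in the labels. The authors deposited 1 table of raw counts, whole reads per gene with no normalization. STAR, HTSeq, FastQC 0.11.9, DESeq2 and GRCm39 are named in the submitters' processing notes, and the strand setting of counting is not given in the sources used here. All tests were edgeR's (version 4.0.16, R 4.3.3; quasi-likelihood F tests, two-sided, TMM, filterByExpr with a minimum count of 10, Benjamini-Hochberg adjustment over all genes tested, FDR under 0.05), with DESeq2 1.42.0 as an alternative. The 12 RNA and the 12 RIP libraries were each fitted together. Ratios and interactions came from all 24, and IgG from 15 libraries with treatment as a covariate. TMM scaling takes the typical gene as unchanged, so RIP over RNA is relative. Members and lists were chosen with earlier results of these data known, and members named are the 5 per direction with the largest change among those called without overlap (3 for IgG and interactions), the 5 highest per kilobase and listed genes with a known role. Lists held RNA, ribosome and spindle proteins, regulators entered as without a KRAB box, KRAB genes with known targets, corepressors, Zbtb, Klf, Zkscan and Zscan genes and cell type markers. Coordinates, exon lengths, 3′ UTRs and reading frames came from GENCODE M39 on GRCm39. The KRAB score needed at least 10 bits, set after the scores were seen. Same-numbered libraries deviated together, with r of 0.114 to 0.392 in the pairs of groups checked (within RNA, within RIP, and RNA with RIP of the same treatment), and unlike-numbered ones had r of -0.30 to 0.208. Every same-numbered r was over 0.1, but the main fits did not use the replicate number, so the values given are those of unpaired tests. It was a block only in an alternative fit. That fit called more members between treatments, 90 against 67 for LPS in RNA and 65 against 32 for TM7nox in RIP. No pair of replicates agreed within sampling noise (chi-square per gene 38 or more in 36 pairs). Counting error is not small for every member. DMSO replicate 1 of total RNA held 2.73 M counts, and levels of a few CPM or less there rest on few reads, such as 17 for Zfp251. Members at low level rest on few reads in deeper libraries too, such as 15, 45, 22 and 26 for Zfp945 in LPS RNA. Reads carry no stated molecular identifiers.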

Additional observations from a re-analysis of the deposited data

Results flagged for a closer look

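Among 19 members printed per library and the members' share of counts, 120 groups of 4 libraries were checked for a library far from the other 3, and 11 had one by Dixon's test at 95%. Chance gives about 1 in 20. In total RNA of LPS-treated cells, replicate 2 was lowest for Zfp513 (17.7 CPM, the others at 21.2 to 21.4) and Zfp330 (46.3, others 59.4 to 60.8) and highest for Zfp398 (1.87, others 1.58 to 1.62). Replicate 4 was highest for Zfp622 (27.9, others 23.4 to 23.9) and replicate 1 for Zfp710 (139.6, others 81.9 to 88.0). In DMSO RNA, replicate 1, the shallow library, was lowest for Zfp330 (29.3, others 37.8 to 39.1) and highest for Zfp26 (19.3, others 13.7 to 14.2). With TM7nox, RNA replicate 3 was lowest for Zfp652 (15.9, others 20.6 to 21.2) and replicate 1 lowest for Zfp180 (31.1, others 34.6 to 34.9). The members' share of RIP counts was lowest in LPS replicate 3 (0.3997%, others 0.438 to 0.439%) and highest in LPS + TM7nox replicate 4 (0.567%, others 0.515 to 0.523%).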

How the results depend on the processing

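No called member changed direction under the alternatives run, which reuse the libraries that gave the calls: DESeq2, RLE size factors, no filter on low counts, the replicate block, each pair of replicates, and each library left out. Many lost calls named above are only those with 1 library left out. Over all alternatives the LPS calls in RNA of Zfp503, Zfp143 and Zfp608 were lost in 11, 10 and 6. The TM7nox calls in RNA of Zfp503, Zfp608 and Zfp827 were lost in 9, 9 and 7. In RIP those of Zfp28 and Zfp961 were lost in 8 and 7. With the replicate block, 90 members were called for LPS in RNA and 111 in RIP (52.4% and 59.3% of all genes). For TM7nox 36 were called in RNA and 65 in RIP (25.0% and 33.6%), and 1 in the LPS interaction (0.349%). Against IgG the block called 127 (65.2%), 121 of them among the 133 without it (68.1%). In the other comparisons the block lost no call. DESeq2 called 2 in the LPS interaction (0.522% of all genes). Replicates 1 and 2 alone called 8 and 0 members in RNA for LPS and TM7nox (13.4% and 1.35% of all genes) and 35 and 5 in RIP (24.0% and 5.59%). In RIP over RNA they called 82 in DMSO, 77 in LPS and 90 in LPS + TM7nox (49.5%, 47.0% and 52.6%). Replicates 3 and 4 alone called 107 and 46 in RNA (58.7% and 27.9%) and 10 in RIP for TM7nox (7.87%). In these pairs of replicates the counts over all genes moved the same way, and the cause was not tested. With every Zfp-named coding gene tested in place of the 200, 115 of the 290 tested were called in RIP under LPS, beside 44.7% of all 13614 genes tested. With each library left out in turn, the counts for LPS and TM7nox were 51 to 83 and 15 to 18 in RNA, and 64 to 81 and 20 to 36 in RIP. Of all genes 35.1 to 44.0% and 9.42 to 12.6% were called in RNA in these fits, and 36.6 to 44.9% and 10.7 to 15.8% in RIP. In RIP over RNA the counts were 112 to 126 in DMSO (65.9 to 70.8% of all genes), 97 to 111 in LPS (56.8 to 62.5%) and 124 to 134 in LPS + TM7nox (64.9 to 67.5%). They were 0 in both interactions (at most 0.0746% of all genes) and 113 to 134 against IgG (58.4 to 68.8%).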

Other observations

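Other zinc finger families were read in the same fits. Of all genes 20.2% rose and 21.7% fell under LPS in total RNA, 7.37% were higher and 6.4% lower with TM7nox, 37.0% and 33.4% in RIP over RNA in DMSO, and 33.8% and 34.2% in anti-HuR over IgG. Of 40 Zbtb genes, whose proteins pair a BTB domain with C2H2 fingers, 35 could be tested. Under LPS 8 rose and 12 fell in total RNA (median log2 -0.18), and TM7nox raised 5 and lowered 1 (median 0.21). RIP over RNA in DMSO was higher for 22 and lower for 4, with a median of 1.88, against 0.20 for the 200 Zfp-named genes and 0.04 for all genes. Of 17 Klf genes 11 could be tested. Under LPS 4 rose and 4 fell, and RIP over RNA in DMSO was higher for 9 and lower for 0, with a median of 2.39. Against IgG 10 Klf genes were higher and 0 lower (median 2.52), and 23 Zbtb genes were higher and 5 lower (1.49). Of 30 Zkscan and Zscan genes, which carry SCAN domains, 16 could be tested in RNA. With TM7nox 14 of the 16 had a positive value (median 0.44), beside 69.0% of the 200 Zfp-named genes and 49.7% of all genes, and 2 were called, both higher.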
